A study of Mus musculus with 17 samples.

Results

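The replication-dependent histone genes are the multicopy genes that supply the histones packaging newly copied DNA. They were taken as every row of the expression table whose symbol is H1f1 to H1f5 or begins with H2ac, H2bc, H3c or H4c and a number, which gave 63 of 41709 gene symbols: 5 H1, 17 H2A, 17 H2B, 12 H3 and 12 H4 genes. The table holds RNA sequencing of 17 whole C57BL/6J mouse embryos, 1 library per embryo. At E9.5 (9.5 days of gestation) 4 wild-type embryos (Disp1 WT) and 4 Disp1CS/INDEL embryos came from crosses of Disp1CS/+ females with Disp1INDEL/+ males. Disp1 encodes Dispatched, which releases Hedgehog proteins from the cells that make them. At E8.5 (8.5 days) 4 Myo10+/+ embryos and 5 Myo10m1J/m1J embryos came from matings between Myo10m1J/+ parents. Myo10 encodes myosin X, a motor of filopodia. The litter of each embryo is not given, so p-values measure the spread between embryos, which may include litter. All E9.5 embryos belong to one experiment and all E8.5 embryos to the other, so age and experiment cannot be told apart.

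Each nucleosome holds a pair of H2A-H2B dimers around an H3-H4 tetramer, and H1 binds the linker DNA between nucleosomes. The messenger RNAs of the replication-dependent genes are made in S phase, carry few introns, and in place of a poly(A) tail end in a conserved stem-loop bound by Slbp, the stem-loop binding protein. Variant histones such as H3.3 and H2A.Z come from genes outside this set, are made through the cell cycle, and are polyadenylated. A list of 11 variant genes serves here for comparison, and 1 of them, H2ax, is known to give both kinds of transcript. Oligo-dT capture, which the standard form of the library kit named in the labels uses, recovers few transcripts that lack a tail, although some replication-dependent genes also give polyadenylated forms.

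The stem-loops of 5 members and of H2ax are shown because this element sets the genes apart from the variants. They were read 5′ to 3′ from GENCODE M21 transcripts on the GRCm38 build, the authors' build being GRCm39. Capitals mark the stem-loop, the flanking bases are in lower case, and all lie in the 3′ UTR.
H4c8: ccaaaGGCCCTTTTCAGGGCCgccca
H4c9: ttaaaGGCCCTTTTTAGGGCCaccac
H1f2: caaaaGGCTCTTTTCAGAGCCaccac
H2ac24: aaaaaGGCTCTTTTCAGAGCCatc
H2bc12: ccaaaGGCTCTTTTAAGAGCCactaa
H2ax: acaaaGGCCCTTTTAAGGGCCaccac
The capitals of H4c8 lie at chr13:23531458-23531473 on the plus strand, 31 bases after the stop codon. Those of H4c9 lie at chr13:22040966-22040981 on the minus strand, and those of H2ax at chr9:44335240-44335255 on the plus strand. A match to the histone stem-loop pattern was present in 41 of the 61 members with a GENCODE transcript, against 0.0769% of all 141767 transcripts searched. A member counted if any of its coding transcripts matched after the stop codon. The share over all transcripts counts a match anywhere and includes the members' own transcripts. Among the 42 members with at least 60 bases annotated after the stop codon, 39 held it, and over all matches the stem-loop began 21 to 58 bases after the stop codon. The 3 without a match were H2bc21, H2bc23 and H2bc4. H2bc21 is annotated as a single-exon transcript of 2620 bases with AATAAA, the polyadenylation signal, within 50 bases of its end. H2ax was the only variant with a match.

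The 41 matching members used 8 distinct stem-loop sequences. The form with capitals as in H1f2 and H2ac24 was carried by 23 members of the H1, H2A, H2B and H3 classes, and by 0 of 11 H4 members with a match. The form of H4c8 was carried by 6 members, all H4, and that of H4c9 by 2, H4c9 and H4c14. The form of H2bc12 was carried by 5 members of the H2B and H3 classes.

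In the RefSeq promoter table (GRCm38.p6), 57 members had an entry, and 62 members had a RefSeq locus, 52 on chromosome 13 and 10 on chromosome 3. Many H2A and H2B genes stand head to head. The 9 such pairs within 500 bases had starts 164 to 281 bases apart. The interval between the starts of H2ac12 and H2bc12 (GRCm38.p6, chr13:22035644-22035820, plus strand) is shown because it serves a pair with very unequal levels. Capitals mark the octamer, ATTTGCAT, and 3 CCAAT boxes, the latter on either strand.
H2ac12-H2bc12 interval: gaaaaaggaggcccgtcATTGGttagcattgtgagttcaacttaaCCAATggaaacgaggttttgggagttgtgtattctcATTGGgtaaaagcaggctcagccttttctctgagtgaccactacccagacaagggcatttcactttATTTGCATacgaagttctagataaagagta
The octamer begins 30 bases before the H2bc12 start and lies 155 bases from the H2ac12 start. At E8.5 H2bc12 averaged 3111 TPM and H2ac12 219.8 TPM, 14.2 times less. H2B was above H2A in 7 of the 9 pairs, of which H2ac1 and H2bc1 were near 0. In the 250 bases upstream of the start, the octamer on either strand was found in 7 of 14 H2B and 6 of 17 H2A promoters, counting shared intervals for both genes. It was found in none of the 5 H1, 10 H3 and 11 H4 promoters and in 1.60% of all promoters in the table. CCAAT on either strand was found in 47 of the 57 members' promoters (82.5%), with 3 of 11 in the H4 class, and in 33.8% of all. TATAAA on the gene's strand was found in 40.4% of the members' promoters and 7.59% of all. These matches describe the letters only.

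Values are TPM, a level scaled by transcript length and to the same total of 1000000 in each library, so read depth is unknown and no counting interval is given. Between 11926 and 13408 genes reached 1 TPM in a library, and no 2 libraries were identical. Myo10 read 19.9 to 33.9 TPM in Myo10+/+ and 2.16 to 4.35 TPM in Myo10m1J/m1J. Disp1 read 15.3 to 19.3 TPM in Disp1 WT and 11.6 to 16.3 TPM in Disp1CS/INDEL. Disp1 WT replicate 3 and Disp1CS/INDEL replicate 1 were low in the tail bud gene T (1.32 and 2.62 TPM against 10.4 to 15.7 TPM in the other E9.5 libraries), and the first also held summed decidua and trophoblast markers of 657.2 TPM, against 9.10 to 13.8 TPM in the other E9.5 libraries. In every library 3 of the 4 neural markers (Sox1, Sox2 and Olig3) reached 1 TPM. The members share near-identical coding sequences, so reads may have been split between copies in a way that the sources used here do not describe, and single-gene levels are less certain than class sums.

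The replication-dependent genes were abundant in the library of every E8.5 embryo and nearly absent from the library of every E9.5 embryo. Their summed level was 201.1, 208.1, 210.4 and 223.6 TPM in the 4 Disp1 WT embryos and 76083, 81347, 83535 and 86600 TPM in the 4 Myo10+/+ embryos. The ranges were far apart, and the means, 210.8 ± 9.38 and 81891 ± 4431 TPM (SD, n = 4 each), differed 388-fold. The mutants sat with the wild types of their own age, at 217.1 ± 22.4 TPM in Disp1CS/INDEL (SD, n = 4) and 77447 ± 5547 TPM in Myo10m1J/m1J (SD, n = 5). Members made up 8.19% of all TPM in Myo10+/+ and 0.0211% in Disp1 WT. In bulk samples fewer cells of a type, less RNA per cell and a difference in what the libraries recovered cannot be told apart.

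**Figure D1:**
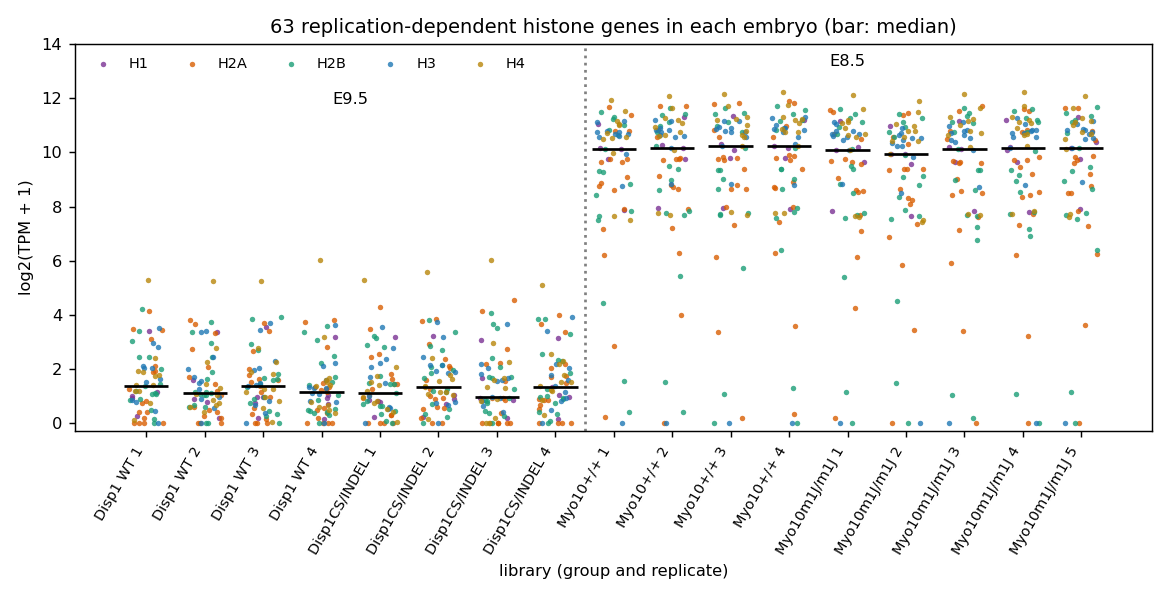
Level of each of the 63 replication-dependent histone genes in each library, as log2(TPM + 1), with 1 point per gene coloured by class and a bar at the median of the 63. The 8 E9.5 libraries lie below the 9 E8.5 libraries for nearly all genes, and the H4 point highest at E9.5 is H4c9.

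The polyadenylated variants went the other way. Their summed level was 5394 to 5706 TPM in Disp1 WT and 2723 to 2959 TPM in Myo10+/+, without overlap. This was the common direction: every Disp1 WT embryo was above every Myo10+/+ embryo for 66.1% of the genes tested between these groups. The members summed to 28.9 ± 1.45 times the variants at E8.5 and 0.0377 ± 0.00178 times at E9.5 (SD, n = 4 wild types each).

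RNAs that are structural rather than coding moved with this difference. The 7SL, 7SK, RNase MRP, small nucleolar and related RNAs took 30.4% to 37.7% of TPM in Myo10+/+ and 33.1% to 45.6% in Myo10m1J/m1J, against 0.00740% to 0.0159% in the E9.5 libraries. The small nucleolar (Snord) rows alone summed to 999.9 ± 200.8 TPM in Myo10+/+ and 5.08 ± 1.52 TPM in Disp1 WT (SD, n = 4 each). Like the stem-loop histone transcripts, these RNAs lack a poly(A) tail. With these structural RNAs, 7SK and RNase MRP included, left out of the total, members were 12.6% of TPM in Myo10+/+ and the fold between the wild types was 595. Cell type markers also differed between the wild types, most being higher at E9.5, where 66.1% of the genes tested were higher without overlap. Primitive erythroid markers summed to 29210 to 39096 TPM in Disp1 WT and 272.4 to 1613 TPM in Myo10+/+. In the same order, heart markers summed to 811.4 to 884.6 TPM and 185.5 to 678.6 TPM, and neural markers to 170.9 to 202.8 TPM and 58.5 to 100.01 TPM. Paraxial mesoderm, endothelial, and decidua and trophoblast markers were also higher without overlap. Yolk sac endoderm markers leaned the other way and overlapped, at 33.0 to 661.9 TPM and 533.6 to 1658 TPM. The part of cell types and library content in the difference was not tested, and age, experiment and library content cannot be told apart. The labels give the same kits and instrument for all libraries.

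**Figure D2:**
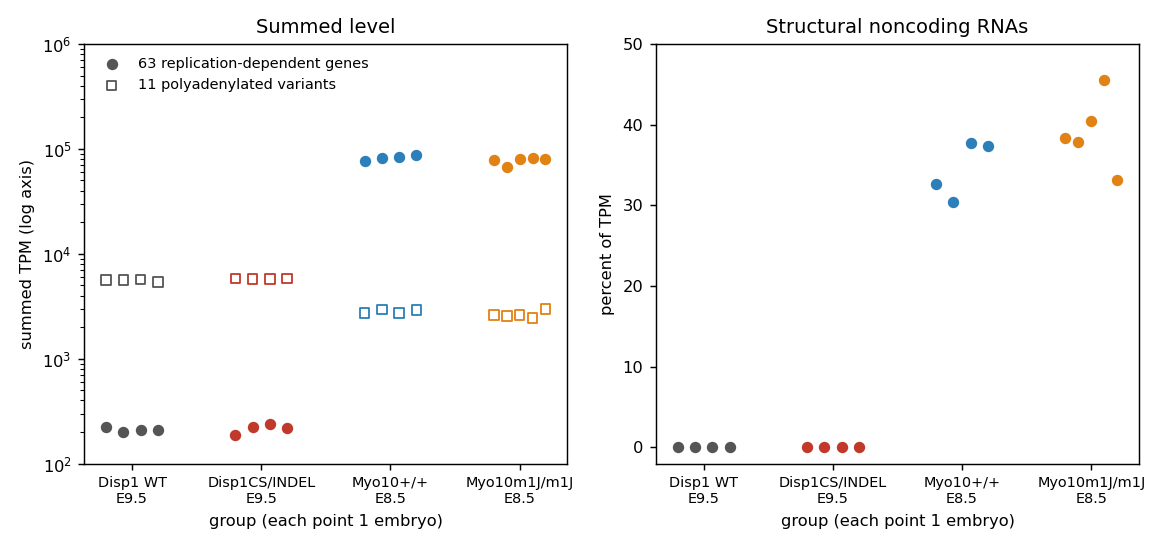
Left, summed TPM per embryo on a log axis for the 63 replication-dependent genes (filled circles) and 11 polyadenylated variants (open squares). Right, percent of TPM in structural noncoding RNAs. Each point is 1 embryo: the members are at 186.6 to 240.4 TPM in E9.5 embryos and 67881 to 86600 TPM in E8.5 embryos, and the structural RNAs are high in the same E8.5 embryos.

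The wild types of the 2 ages were compared gene by gene with limma on log2(TPM + 1), adjusting p-values over all 13397 genes tested and calling those with an adjusted p under 0.05. Of the 63 members, 60 passed the filter of 1 TPM in 4 libraries, and 33 of these passed only through the E8.5 embryos, so they had to differ. In 10 of the 33 no Disp1 WT embryo reached 1 TPM. The count is given as a description. Among the 60, 59 were lower and 1 was higher at E9.5, where 79.6% of all genes tested were called (69.4% higher, 10.2% lower). Every Myo10+/+ embryo was above every Disp1 WT embryo for 59 of the 63 members, against 4.15% of all rows of the table and 7.96% of the genes tested. The same 59 of 63 held for all 9 E8.5 against all 8 E9.5 embryos. Apart from the 1 that was higher, the remaining members were H3c14, H2bc1 and H2ac1, which overlapped near 0. H2ac1 and H2bc1 are testis histone genes.

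The median log2 difference of the members tested was -8.60, against 0.62 for all genes tested. The class medians were -9.23 for H1, -8.09 for H2A, -7.96 for H2B, -9.24 for H3 and -9.44 for H4. By ratio of mean TPM, the median fold was 1489 for the 5 H1 genes and 1291 for the 12 H4 genes. It was 883 over 11 H3 genes, 598 over 16 H2A genes and 435 over 16 H2B genes. These medians and folds are descriptions, as they include the 33 members that passed the filter only through the E8.5 embryos.

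Among the core histone genes, H4c8 had the highest mean E8.5 level of all members. It read 1.44, 2.04, 2.68 and 3.80 TPM in Disp1 WT and 3953, 4305, 4548 and 4737 TPM in Myo10+/+, a gap with no overlap and a log2 difference of -10.34 (SE 0.17, limma adjusted p = 1.3e-12). H4c17, another H4 gene, read 0.397 to 2.47 TPM and 2961 to 3420 TPM (log2 difference -10.58, SE 0.23). Near 1 TPM, log2(TPM + 1) understates a fold. Like H4c17, H4c6 passed the filter only through the E8.5 embryos, so its difference is a description. It read 0.612 to 1.04 TPM in Disp1 WT and 2110 to 2396 TPM in Myo10+/+ (log2 difference -10.30, SE 0.09).

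H3c6 encodes an H3 protein and had the smallest p-value of any gene in this comparison. Its Disp1 WT values were 1.83, 1.94, 2.00 and 2.14 TPM and its Myo10+/+ values 1767, 1891, 1915 and 2054 TPM. All E9.5 values lay close together, and the log2 difference was -9.32 (SE 0.07, limma adjusted p = 1.3e-14). H3c2 and H3c13, the most abundant H3 genes, had log2 differences of -9.67 (SE 0.16) and -9.49 (SE 0.16). Among the H2A genes, H2ac18 was lower by 1918-fold in the ratio of means (1.75 against 3362 TPM), and H2ac24 by 256-fold (13.5 against 3445 TPM). H2ac24 had Disp1 WT values of 11.9 to 16.6 TPM, well above the 1.04 to 3.28 TPM of H2ac18, although the 2 genes overlapped at E8.5. H2ac4 had a log2 difference of -9.53 (SE 0.08).

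The H2B genes showed the same split. H2bc12 read 7.38, 12.2, 14.4 and 17.8 TPM in Disp1 WT and 2902, 3182, 3186 and 3352 TPM in Myo10+/+, with no overlap and a log2 difference of -7.88 (SE 0.19, limma adjusted p = 6.3e-11). H2bc3 read 1.06 to 2.01 TPM and 2561 to 2993 TPM (log2 difference -10.11, SE 0.12). Of the linker histones, H1f1 (-10.07, SE 0.13), H1f5 (-9.37, SE 0.08) and H1f4 (-9.23, SE 0.09) read at most 2.00 TPM in any Disp1 WT embryo, while H1f2 averaged 9.42 TPM. H1f1, H1f4, H1f5, H4c6, H4c17 and H2bc23 are among the members that passed the filter only through the E8.5 embryos, so their differences are descriptions. H1f2 was lower by 92.1-fold and H1f1 by 1911-fold.

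H2bc21 was the only member higher at E9.5. It is 1 of the 3 without a stem-loop match among the 42 members with at least 60 bases annotated after the stop. It read 4.46, 4.48, 4.57 and 5.50 TPM in Disp1 WT and 1.12, 1.47, 1.91 and 1.92 TPM in Myo10+/+. No embryos overlapped, and the log2 difference was 1.15 (SE 0.13, limma adjusted p = 1.1e-05). Every E9.5 embryo was above every E8.5 embryo, which between the wild types held for 24.9% of all rows and 66.1% of the genes tested. H4c9 was the member with the smallest fall. It read 37.1, 37.5, 37.6 and 63.6 TPM in Disp1 WT and 200.7, 203.4, 214.5 and 217.0 TPM in Myo10+/+, a log2 difference of -2.26 (SE 0.15), or 4.75-fold. H4c9 held a stem-loop match. H2bc4, another of the 3 without a match, was lower by 47.7-fold (10.5 against 499.9 TPM). H2bc23, the third, was lower by 277-fold (0.777 against 215.1 TPM). Of the 19 members with fewer than 60 bases annotated, 2 held a match, and the annotation of the others was too short to look for one.

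**Figure D3:**
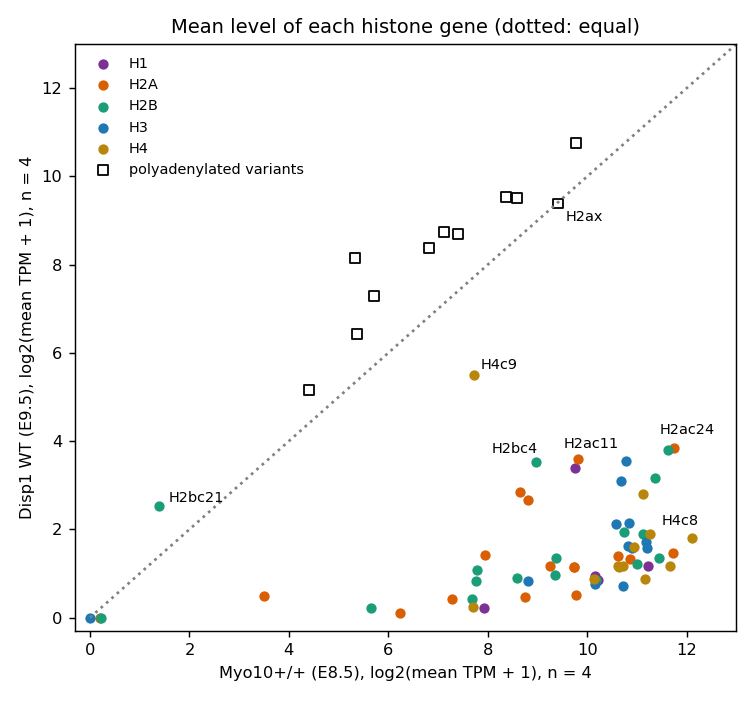
Mean level of each histone gene in Myo10+/+ (E8.5, horizontal) and Disp1 WT (E9.5, vertical), as log2(mean TPM + 1) over 4 embryos each; colours are classes and open squares are the 11 polyadenylated variants. Members lie below the dotted line of equal level except H2bc21 and genes near 0, H4c9 lies nearest to it among the abundant members, and 10 of the variants lie above it.

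The order of the members also differed between the ages. Across the 63 members, Spearman's rho between embryos was 0.987 to 0.997 for pairs at E8.5 and 0.698 to 0.916 for pairs at E9.5, as a description over genes that share their libraries. Between the mean levels of the 2 ages it was 0.50. At E8.5, 15 members held 50% of the summed level and the top member, H4c8, held 5.52%. At E9.5, 7 members held 50% and the top member, H4c9, held 20.9%. The E9.5 mean reached 5 TPM in 12 members, 4 of them H2B, 3 H2A, 2 H3, 2 H4 and 1 H1. Among them H2ac24 averaged 14.8 TPM, H2ac11 12.4 TPM, H2bc12 12.2 TPM and H3c3 11.5 TPM. In 11 members every E9.5 library was below 1 TPM, and in 22 every one was at or above it. The 9 members with AATAAA near an annotated end had a median E9.5 level of 1.33 TPM, and the 33 without it, among those with at least 60 bases annotated after the stop, had 1.98 TPM. Their median E8.5 levels were 213.8 TPM and 1673 TPM, so the E9.5 levels alone do not compare the falls. AATAAA lay in the last 50 bases of 26.6% of all transcripts searched.

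Of the 11 variants, 10 were higher at E9.5, where 69.4% of all genes tested were called higher. H3f3a, which encodes H3.3, read 714.4 to 747.8 TPM in Disp1 WT and 296.2 to 358.9 TPM in Myo10+/+ (log2 difference 1.17, SE 0.07). H2az1, which encodes H2A.Z, read 1708 to 1753 TPM and 765.6 to 937.2 TPM (log2 difference 0.99, SE 0.07). H1f10, a linker variant, had the largest difference at 2.83 (SE 0.11), with 257.1 to 310.5 TPM against 34.1 to 48.2 TPM. The others that were higher were H2az2 (1.56), Macroh2a1 (1.58), Macroh2a2 (1.63), H1f0 (1.32), H3f3b (0.92), Cenpa (1.06) and H2aj (0.74). H2ax, the variant with a stem-loop match, read 597.7 to 750.6 TPM and 632.6 to 710.8 TPM, overlapping, with a log2 difference of -0.02 (SE 0.08, limma adjusted p = 0.783). The scaling moved this comparison: with median-of-ratios scaling the median over all genes went from 0.62 to 0.01 and the calls from 9304 higher and 1364 lower to 4858 and 4821. Under that scaling the members stayed at 59 lower and 1 higher, 9 variants were higher, H2ax was lower (-0.71), and H2aj was not called (0.09). The variants' median went from 1.17 to 0.48, with H3f3a at 0.48, H3f3b at 0.24, H2az1 at 0.30 (limma adjusted p = 0.0479), Cenpa at 0.39 and H1f10 at 2.16. H2az2 stood at 0.88, Macroh2a1 at 0.91, Macroh2a2 at 0.95 and H1f0 at 0.64.

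Genes for factors that make and process histone messenger RNAs were next. Of 19 genes for transcription and 3′ processing, 12 were higher and 3 lower at E9.5, where 69.4% of all genes tested were higher and 10.2% lower. With median-of-ratios scaling 3 were higher and 11 lower, where 4858 of all 13333 genes tested were higher and 4821 lower. These shares over all genes apply to the chaperone and S phase lists as well. Slbp read 64.5, 66.0, 66.8 and 70.8 TPM in Disp1 WT and 45.6, 47.0, 48.4 and 53.9 TPM in Myo10+/+, with no overlap and a log2 difference of 0.45 (SE 0.07, limma adjusted p = 0.00015) that became -0.22 under that scaling. The 4 with the smallest p-values were Ncbp2, a cap-binding subunit (1.29), Lsm10, of the U7 particle (0.92), Ctif, a translation initiation factor (1.51), and Cpsf3, the cleavage nuclease (0.62, and -0.05 with that scaling). The 3 lower genes, named after their values were seen, were Npat (-0.80), the coactivator of histone gene transcription, Casp8ap2 (-0.62) and Zfp473 (-0.45), which binds the U7 particle. Among 20 histone chaperone genes 17 were higher and 2 lower, the smallest p-values belonging to Asf1b (1.65), Rbbp4 (0.92), Ssrp1 (1.06) and Anp32e (1.48), and with that scaling 10 were higher and 4 lower. Of 39 S phase genes, which mark cells copying DNA, 33 were higher and 2 lower, the smallest p-values belonging to E2f1 (1.73), Tk1 (1.41), Rpa2 (1.12) and Rrm2 (0.96). With that scaling 11 were higher and 11 lower.

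Within E8.5 the classes kept similar proportions, with small differences between the genotypes. Across the 9 embryos H4 genes held 27.4% to 29.8% of the members' TPM, H2B 22.4% to 23.6%, H3 21.1% to 22.9%, H2A 18.4% to 19.8% and H1 6.72% to 7.53%. H2A held 19.4% to 19.8% in Myo10+/+ and 18.4% to 18.8% in Myo10m1J/m1J. H3 held 22.2% to 22.9% and 21.1% to 22.1% in the same order. Neither class overlapped between the genotypes, while H1, H2B and H4 did, and no test was run on these shares. Over the members with a mean of at least 10 TPM, the median coefficient of variation between the 9 embryos was 6.16% for H1 and 6.49% for H2B. It was 7.29% for H4, 7.95% for H3 and 10.6% for H2A. H2bc24 varied most. It read 20.5, 42.7, 51.9 and 82.1 TPM in Myo10+/+ and 21.9, 40.7, 82.2, 106.6 and 119.7 TPM in Myo10m1J/m1J. The ranges overlapped in part, with 3 mutants above every wild type and 1 wild type below every mutant.

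No member passed the test between Myo10m1J/m1J and Myo10+/+. Of 60 members tested, 0 were called by limma, where 0.00796% of 12560 genes were called (Myo10 itself), and the smallest adjusted p of a member was 0.473. At an unadjusted p under 0.05, 7 members were lower and 0 higher, against 6.46% of all genes lower and 6.8% in either direction. Of the 60, 55 had a negative log2 difference with a median of -0.09. With median-of-ratios scaling 50 were positive and 10 negative, with a median of 0.11 and 0 at an unadjusted p under 0.05, and with the structural RNAs left out 34 were positive and 26 negative. Most genes leaned the same way, the median over all genes being -0.16 as deposited. The summed level was 67881, 77576, 79514, 80862 and 81401 TPM in the mutants and 76083 to 86600 TPM in the wild types, overlapping.

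The members whose groups did not overlap were H2A and H3 genes. Every mutant was below every wild type for 6 of 16 H2A genes, 2 of 11 H3 genes and 0 of the 33 H1, H2B and H4 genes tested, against 0.963% of all genes. No member had every mutant above every wild type (0.0318% of all genes). With median-of-ratios scaling, and with the structural RNAs left out, this count was 0 of 60. The smallest p belonged to H2ac13, an H2A gene. It read 427.8, 442.1, 446.4 and 475.0 TPM in Myo10+/+ and 273.5, 341.0, 346.7, 361.7 and 378.3 TPM in Myo10m1J/m1J. The groups did not overlap, and the log2 difference was -0.40 (SE 0.10, limma adjusted p = 0.473). Across all alternatives its log2 difference ran from -0.44 to -0.20 with limma adjusted p between 0.0765 and 0.834.

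The next 4 were H2ac10 (-0.29, SE 0.08), H2ac12 (-0.29, SE 0.10), H3c10 (-0.24, SE 0.09) and H2ac24 (-0.21, SE 0.07). H2ac24, with H2ac18 the most abundant H2A gene, read 3253, 3349, 3541 and 3636 TPM in Myo10+/+ and 2652, 2970, 2996, 3113 and 3156 TPM in Myo10m1J/m1J. Every mutant was lower than every wild type for these 4 genes. The most abundant genes of the other classes had these log2 differences: H4c8 (SE 0.09, with a difference that rounds to 0), H4c17 (-0.04), H2bc12 (-0.04), H2bc3 (-0.01), H1f1 (-0.07), H1f5 (-0.03) and H3c2 (-0.10), while H3c13 stood at -0.20 (SE 0.08) and H2ac18 at -0.13 (SE 0.10). The class medians were -0.14 for H2A, -0.12 for H3, -0.08 for H1, -0.05 for H2B and -0.04 for H4. With median-of-ratios scaling all 5 were positive, at 0.060 for H2A, 0.077 for H3, 0.12 for H1, 0.15 for H2B and 0.16 for H4.

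**Figure D4:**
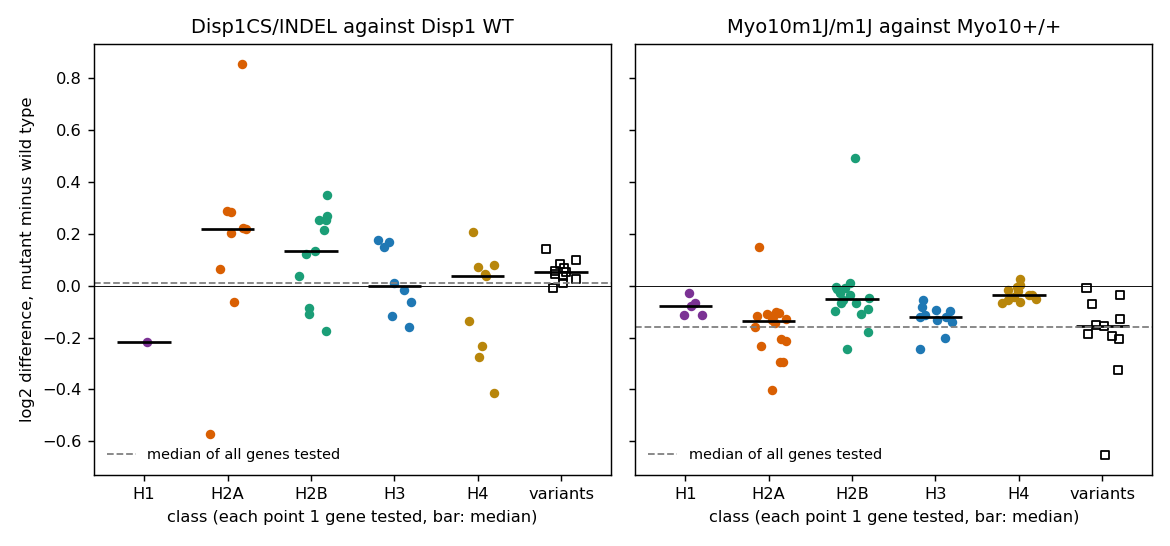
Log2 difference, mutant minus wild type, of each member tested by class and of the 11 polyadenylated variants (open squares) at E9.5 (left, Disp1CS/INDEL) and E8.5 (right, Myo10m1J/m1J); bars are class medians and the dashed line is the median of all genes tested. On the right the H2A and H3 medians, -0.14 and -0.12, lie below those of H2B and H4, -0.05 and -0.04; with median-of-ratios scaling all of these are above 0.

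Ratios of class sums within a library do not depend on how the library total is scaled. Summed H2A over summed H2B was 0.838, 0.867, 0.877 and 0.879 in Myo10+/+ and 0.782, 0.785, 0.792, 0.804 and 0.804 in Myo10m1J/m1J. The groups did not overlap, with means of 0.865 ± 0.0188 (SD, n = 4) and 0.793 ± 0.0103 (SD, n = 5). Summed H3 over summed H4 was 0.791 to 0.836 in Myo10+/+ and 0.709 to 0.782 in Myo10m1J/m1J, also without overlap. These ratios were chosen after their values were seen and carry no test. Of the other ratios computed, H2A over H4 also did not overlap, at 0.691 to 0.723 in Myo10+/+ and 0.620 to 0.667 in Myo10m1J/m1J. H1 over H3 did overlap, at 0.300 to 0.331 and 0.315 to 0.341. At E9.5 the H2A over H2B ratio was 0.774 to 1.09 in Disp1 WT and 0.920 to 1.23 in Disp1CS/INDEL, overlapping. Summed Snord RNAs, measured beside these ratios, were 774.3 to 1242 TPM in Myo10+/+ and 1116 to 1559 TPM in Myo10m1J/m1J, and their part was not tested.

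**Figure D5:**
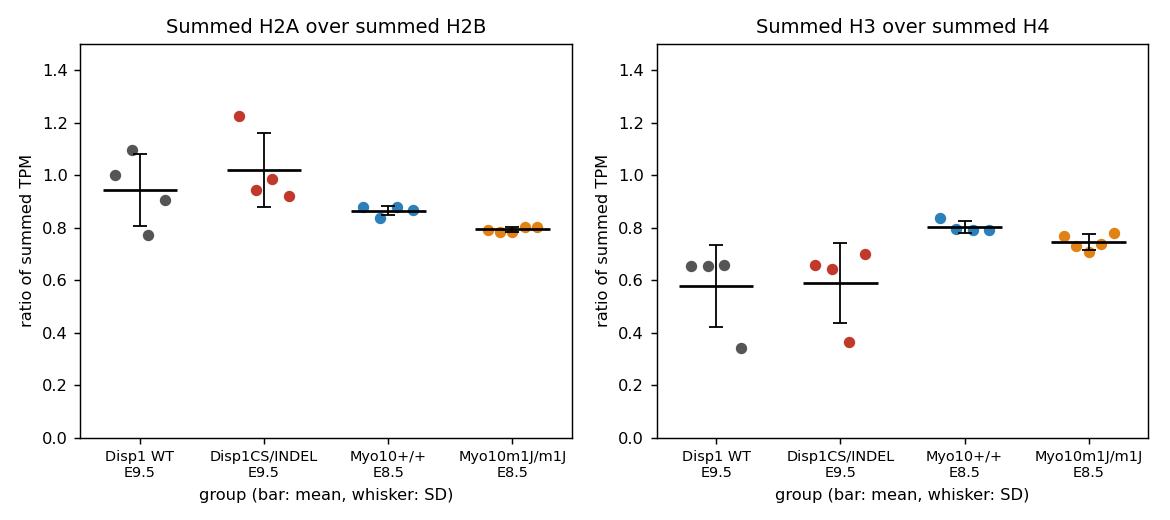
Ratio of summed TPM of H2A to H2B genes (left) and of H3 to H4 genes (right) in each embryo, by group, with the mean (bar) and SD (whisker). At E8.5 the 5 Myo10m1J/m1J embryos lie below the 4 Myo10+/+ embryos in both ratios, and at E9.5 the groups overlap.

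Over the 59 members with an E8.5 mean of at least 10 TPM, Myo10m1J/m1J replicate 2 was the lowest embryo in 52 and Myo10+/+ replicate 4 the highest in 32. The median deviation from the mean of the 9 embryos was -0.23 and 0.12 on the log2 scale, against 0.06 and -0.01 over 12560 genes in the same libraries. Without Myo10m1J/m1J replicate 2 the median log2 difference of the members was -0.04. Without it the H2A over H2B ratio of the remaining 4 mutants was still 0.785 to 0.804.

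None of the 11 variants was called in the Myo10 comparison, and all 11 had a negative log2 difference (median -0.16, as over all genes). With median-of-ratios scaling 8 were positive and 3 negative, with a median of 0.042. H1f10 had the smallest p. It read 34.1, 36.5, 37.2 and 48.2 TPM in Myo10+/+ and 18.6, 19.3, 23.4, 28.5 and 34.5 TPM in Myo10m1J/m1J. The highest mutant overlapped the lowest wild type, and the log2 difference was -0.65 (SE 0.17, limma adjusted p = 0.473). Slbp stood at -0.12 (SE 0.10).

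At E9.5 the members tested did not separate Disp1CS/INDEL from Disp1 WT. Of the 63 members 38 were measured well enough to test, and 0 were called by limma, where 0.0301% of 13294 genes were called (0.00752% higher, 0.0226% lower). The smallest limma adjusted p of a member was 1.000. At an unadjusted p under 0.05 there were 2 members, both lower, against 2.26% of all genes in either direction and 1.23% lower. The median log2 difference was 0.07 against 0.01 for all genes, with 24 positive and 14 negative. Summed members were 186.6, 217.8, 223.6 and 240.4 TPM in Disp1CS/INDEL, on both sides of the Disp1 WT values. The groups overlapped for all 38, where 0.654% of genes had every mutant below and 0.895% every mutant above every wild type.

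The 2 members were H1f2 and H4c1. H1f2, a linker histone gene, read 8.18, 9.30, 9.51 and 10.7 TPM in Disp1 WT and 7.52, 7.94, 8.03 and 8.27 TPM in Disp1CS/INDEL, overlapping at 1 embryo (log2 difference -0.22, SE 0.09, limma adjusted p = 1.000). H4c1, an H4 gene, read 1.13 to 2.49 TPM and 0.871 to 1.60 TPM (-0.41, SE 0.17). The next by p were H2ac11 (0.29, SE 0.15), H2ac19 (0.86, SE 0.44) and H2ac18 (-0.57, SE 0.31). H2ac19 ranged from 0 to 3.20 TPM within Disp1 WT alone. H4c9 split the E9.5 embryos without regard to genotype: 1 Disp1 WT embryo read 63.6 TPM and 1 Disp1CS/INDEL embryo 64.5 TPM, and the other 6 read 33.1 to 46.7 TPM. Without both libraries low in tail bud transcripts 0 members were called. None of the 11 variants was called, with log2 differences from -0.01 to 0.14. H3f3a was the only variant without overlap, at 714.4 to 747.8 TPM in Disp1 WT and 748.9 to 774.4 TPM in Disp1CS/INDEL. Its log2 difference was 0.05, and 0.895% of all genes had every mutant above every wild type.

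The effects of the 2 mutations were also compared with each other, as the Disp1 effect minus the Myo10 effect in 1 fit of all 17 libraries. Of 60 members tested 0 were called, where 0.0216% of 13910 genes were called (0.0144% higher, 0.00719% lower), and the smallest adjusted p was 0.586. Only 38 of the 60 passed the filter among the E9.5 embryos. The rest entered only through the E8.5 embryos, so their differences are descriptions, and the counts that follow include them. At an unadjusted p under 0.05, 7 members were positive and 2 negative, against 4.95% of all genes in either direction and 0.266% negative. With median-of-ratios scaling 0 were positive and 2 negative, and the 3 settings that left structural RNAs out also gave 0 positive. The smallest p-values belonged to H2bc18 (-0.68, SE 0.21), H3c6 (0.28, SE 0.11), H3c3 (0.31, SE 0.12), H2ac20 (0.40, SE 0.17) and H4c1 (-0.44, SE 0.19). H2bc18 read 0.837 to 2.30 TPM in Disp1 WT and 0.174 to 0.670 TPM in Disp1CS/INDEL. In Myo10+/+ it read 1828 to 2273 TPM and in Myo10m1J/m1J 1703 to 2221 TPM, overlapping. H2bc18 and H2ac20 were below the filter in the Disp1 comparison and entered only through the E8.5 embryos. H2ac20 read 0.123 to 0.917 TPM in the 8 E9.5 embryos. The median of the members was 0.11 against 0.16 for all genes.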

How the data were processed

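RNA of 17 single embryos was sequenced, and the authors deposited 1 table of TPM for 41709 symbols, each library summing to 1000000. The submitters' processing notes name GRCm39 (mm39). How reads were aligned, counted and assigned is not given in the sources used here, and TPM keeps no depth. From the deposited TPM, log2(TPM + 1) was computed. Each comparison kept genes at 1 TPM or more in 4 or more of its libraries and was fitted with limma 3.58.1 (R 4.3.3) with a variance trend. P-values were adjusted by Benjamini and Hochberg's method over all of them and called below 0.05. The scripts were tested on simulated data. The difference of mutant effects used all 17 libraries.

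The members and lists were chosen with earlier results of these data known. Genes named were the 5 members with the smallest p, the 2 of each class with the highest mean, the variants, and in other lists up to 4 called genes and Slbp. H4c9, H2bc21, H2bc4, H2bc23, H2bc24, H2ac11, H2ac12 and H2bc12 as a pair, H3c3 and H1f2 at E9.5, Npat, Casp8ap2, Zfp473, T and H4f16 were named after their values were seen. Sequences came from GENCODE M21 and RefSeq (GRCm38), with 62 members matched in RefSeq, 61 in GENCODE and 57 with a promoter. Alternatives were a pseudocount of 0.1, other filters and scalings, 1 fit of all libraries, a replicate block and each library left out. Leaving out the 7SK and RNase MRP rows and both libraries low in T was added after the data were seen.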

Additional observations from a re-analysis of the deposited data

Results flagged for a closer look

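Within each group, 37 quantities of the members (148 groups of 4 or 5 embryos) were searched for 1 embryo standing far from the others. By chance 1 in 20 groups, or 7.4, would stand out, and 16 did. The quantities overlap, as sums hold genes listed beside them, and H4c9 and H2bc21 were among those added after their values were seen. Setting 16 against 7.4 therefore cannot show an excess. No explanation was tested.

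Myo10m1J/m1J replicate 2 stood apart in 6 of them. Its summed members were 67881 TPM against 77576 to 81401 TPM in the other mutants, and its summed H2B genes 16018 TPM against 18148 to 18918 TPM. H2bc12 read 2708 TPM against 3092 to 3232 TPM, H3c13 1696 TPM against 2022 to 2130 TPM, and H3c6 1584 TPM against 1784 to 1825 TPM. H2bc21 was the opposite, at 1.83 TPM against 1.05 to 1.25 TPM.

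At E9.5, Disp1 WT replicate 4 had an H4c9 level of 63.6 TPM against 37.1 to 37.6 TPM, a summed H4 level of 83.5 TPM against 55.3 to 58.8 TPM, and a ratio of summed H3 to summed H4 of 0.341 against 0.654 to 0.656. Disp1CS/INDEL replicate 3 had a ratio of 0.364 against 0.643 to 0.699. H3c2 read 3.31 TPM in Disp1 WT replicate 1 against 1.42 to 1.65 TPM. H1f1 read 2.00 TPM in Disp1 WT replicate 2 against 0.947 to 1.08 TPM. H2bc21 read 5.50 TPM in Disp1 WT replicate 3 against 4.46 to 4.57 TPM.

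In Myo10+/+, replicate 1 had an H2ac19 level of 1763 TPM against 1506 to 1509 TPM and a ratio of H3 to H4 of 0.836 against 0.791 to 0.794. Replicate 4 had an H3c2 level of 2529 TPM against 2288 to 2327 TPM.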

How the results depend on the processing

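The members called stayed at 0 in both mutant comparisons and in their difference under every alternative run. Between the ages leaving out 1 library gave 50 to 60 called, the 50 being all that passed the filter without a Myo10+/+ embryo. The members' median log2 difference between the ages, -8.60, was -9.66 with a pseudocount of 0.1, -8.52 with no filter, -9.15 with median-of-ratios scaling, -8.98 without structural RNAs other than 7SK and RNase MRP, -9.15 with mitochondrial, haemoglobin and histone rows also out of the total, -9.22 with the 7SK and RNase MRP rows out too, and -8.79 to -8.52 leaving out 1 library. In the Myo10 comparison the median was 0.11 with median-of-ratios scaling and 0.013 with those rows out, and the members whose groups did not overlap went from 8 to 0 and 0. For the difference of effects the median was -0.079 and 0.0068. Slbp between the ages was -0.22 with median-of-ratios scaling, -0.036 with the larger set out of the total and -0.15 with the 7SK and RNase MRP rows out; Cpsf3 was -0.045 with median-of-ratios scaling. With median-of-ratios scaling the members' summed level was set against the unscaled total of 1000000. It was then 0.0157% in Disp1 WT, 0.0161% in Disp1CS/INDEL, 9.88% in Myo10+/+ and 10.7% in Myo10m1J/m1J. These are not shares of a scaled total, since dividing a library by 1 factor leaves the members' share of it unchanged. Without structural RNAs, but with the 7SK and RNase MRP rows kept, the members' share of TPM was 10.7% in Myo10+/+ and 10.5% in Myo10m1J/m1J. With those rows out too it was 12.6% and 12.8%, the order of the groups turning. The cause of each shift beyond the changed total was not tested.

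Genes called in the Disp1 comparison (4) were 2 with no filter, 2 with a mean of at least 5 TPM, 8 with median-of-ratios scaling, 2 in 1 fit of all libraries, 2 without both libraries low in T, and 1 to 3 leaving out 1 library. In the Myo10 comparison (1) they were 2 with no filter, 2 without structural RNAs, 2 with the larger set out, and 1 to 3 leaving out 1 library, the 3 without Myo10+/+ replicate 4. For the difference of effects (3) they were 8 with no filter. Replicate numbers did not pair the embryos, their correlations running from -0.29 to 0.46. A replicate block gave 2 genes in the Disp1 and 46 in the Myo10 comparison (45 lower), H1f10 among them (-0.71, limma adjusted p = 0.0491), and changed no call of a member. Of 115 named results, 37 that passed the threshold in neither setting changed sign under some alternative. TPM keeps no depth, so counting error could not be separated for members near 1 TPM at E9.5.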

Other observations

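H4f16, an H4 gene outside the naming pattern used to choose the members and picked after its values were seen, followed the members. It read 147.0 to 192.4 TPM in the E8.5 embryos and 0.119 to 0.513 TPM in the E9.5 embryos, with no overlap.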
